A study of Homo sapiens with 2 samples.

Results

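The interferon response genes and the sensors of double-stranded RNA were examined in C4-2 cells 48 h after transfection with miR-99a or with si-GL2. Of 33 genes chosen by name from this pathway, 32 had at least 1 probe set that the platform annotation assigns to no other gene, 56 probe sets of 54675 in all. STAT2 was not analysed here. A further probe set, shared by IRF9 and RNF31, was left out of the counts and read 89.0 with miR-99a and 88.1 with si-GL2.

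C4-2 is a human prostate cancer line that descends from LNCaP and expresses the androgen receptor. The miR-99a group received the microRNA miR-99a, and the si-GL2 group received the control small interfering RNA, named as a luciferase siRNA is. Both groups were grown in RPMI medium with 10% serum and transfected with the lipid reagent RNAiMax, so every value below comes from cells exposed to a small RNA and a lipid carrier. Each group was measured on 1 Affymetrix array, so there is no replicate error and no p-value, and all differences lie between 2 arrays. No array of untransfected cells was used here, and a response that both small RNAs caused alike would not appear in the differences.

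Double-stranded RNA in the cytosol or in endosomes is recognised by a small set of sensors. Their adaptors activate IRF3 and IRF7, which switch on interferon genes, and secreted interferon acts back on the cells through its receptor and the JAK kinases to induce many antiviral genes. Synthetic small RNAs delivered with lipid can trigger this pathway in some cell types, which is why interferon-stimulated genes are commonly read as a check in such experiments. LNCaP, the parent of C4-2, is known for lacking the kinase JAK1 and for responding poorly to interferon.

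The transfected microRNA and the promoters of 3 genes are shown for reference, and no difference below was computed from them. The label does not say which arm was supplied, and both mature arms of MIR99A (RefSeq, GRCh38.p14, plus strand, chr21:16539101-16539122 and chr21:16539138-16539159) are given with the seed, bases 2 to 8, in capitals.
hsa-miR-99a-5p: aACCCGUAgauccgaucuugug
hsa-miR-99a-3p: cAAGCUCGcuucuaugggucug

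Interferon-stimulated genes are switched on through the interferon-stimulated response element, searched here as GAAANNGAAA or, on the other strand, TTTCNNTTTC. In the RefSeq promoter windows, 250 bases before to 50 after each annotated start, 20 of the 26 pathway genes with a window held a match (76.9%), against 1195 of all 27305 genes (4.38%). The windows of BST2 (minus strand, chr19:17405581-17405880), ISG15 (plus strand, chr1:1013247-1013546) and IFIT1 (plus strand, chr10:89392373-89392672), build GRCh38.p14, are printed with these matches in capitals. BST2 is the one pathway gene past 1.5-fold by the rule given below, ISG15 is one that read alike on both arrays, and IFIT1 is one of low signal.
BST2: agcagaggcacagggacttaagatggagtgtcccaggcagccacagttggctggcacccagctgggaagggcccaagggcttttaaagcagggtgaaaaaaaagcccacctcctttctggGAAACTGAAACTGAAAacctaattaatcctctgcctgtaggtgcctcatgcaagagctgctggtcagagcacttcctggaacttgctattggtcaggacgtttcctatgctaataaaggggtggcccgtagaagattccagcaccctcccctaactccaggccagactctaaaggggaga
ISG15: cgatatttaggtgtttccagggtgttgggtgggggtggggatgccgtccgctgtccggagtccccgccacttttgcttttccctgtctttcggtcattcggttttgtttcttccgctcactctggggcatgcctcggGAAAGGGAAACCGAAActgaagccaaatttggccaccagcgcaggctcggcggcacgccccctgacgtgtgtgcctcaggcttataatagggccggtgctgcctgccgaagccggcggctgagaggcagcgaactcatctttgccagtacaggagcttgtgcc
IFIT1: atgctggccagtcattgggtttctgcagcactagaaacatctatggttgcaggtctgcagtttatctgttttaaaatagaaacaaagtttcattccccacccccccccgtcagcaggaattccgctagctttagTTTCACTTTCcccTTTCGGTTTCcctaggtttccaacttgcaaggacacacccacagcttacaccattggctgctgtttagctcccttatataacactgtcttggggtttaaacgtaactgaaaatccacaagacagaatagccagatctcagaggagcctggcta

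Each of these windows held 2 matches. In BST2 and ISG15 they overlap in a run of 16 bases that begins 130 and 113 bases before the annotated start, and in IFIT1 they are separate and begin 116 and 103 bases before it. A match to these letters is a description of the sequence and does not show binding.

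Above the level limit given below, the interferon response genes differed between the arrays about as much as all genes did (SD of 0.26 for both). By the brightest probe set of each gene, 1 of the 21 pathway genes above the level limit was at least 1.5-fold lower with miR-99a, where 2.90% of all 12218 genes above that limit were, and 0 were at least 1.5-fold higher, where 1.21% were. The level limit is the median of all probe sets, a signal of 47.2, which is a relative bound and not a detection call. Over probe sets, 1 of 27 above the limit was lower by that rule (2.76% of all such probe sets were) and 0 were higher (1.53%). Differences are of log2(signal + 16), miR-99a minus si-GL2, a scale that understates the change of dim genes, and 1.5-fold is 0.58 on it. The 21 genes had a median difference of 0.03 and a range of -0.69 to 0.43, beside a median of -0.03 over all genes above the limit. Among these 21 genes, 11 lay above 0 and 10 below, where 43.7% of all genes above the limit lay above 0. Of the 21, 16 lay within 0.25 of 0 (71.7% of all genes above the limit did). The other 11 genes, all below the limit, had a median of -0.05 and a range of -0.42 to 0.45. In whole-culture RNA, fewer cells expressing a gene and less of its RNA per cell cannot be told apart.

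**Figure D1:**
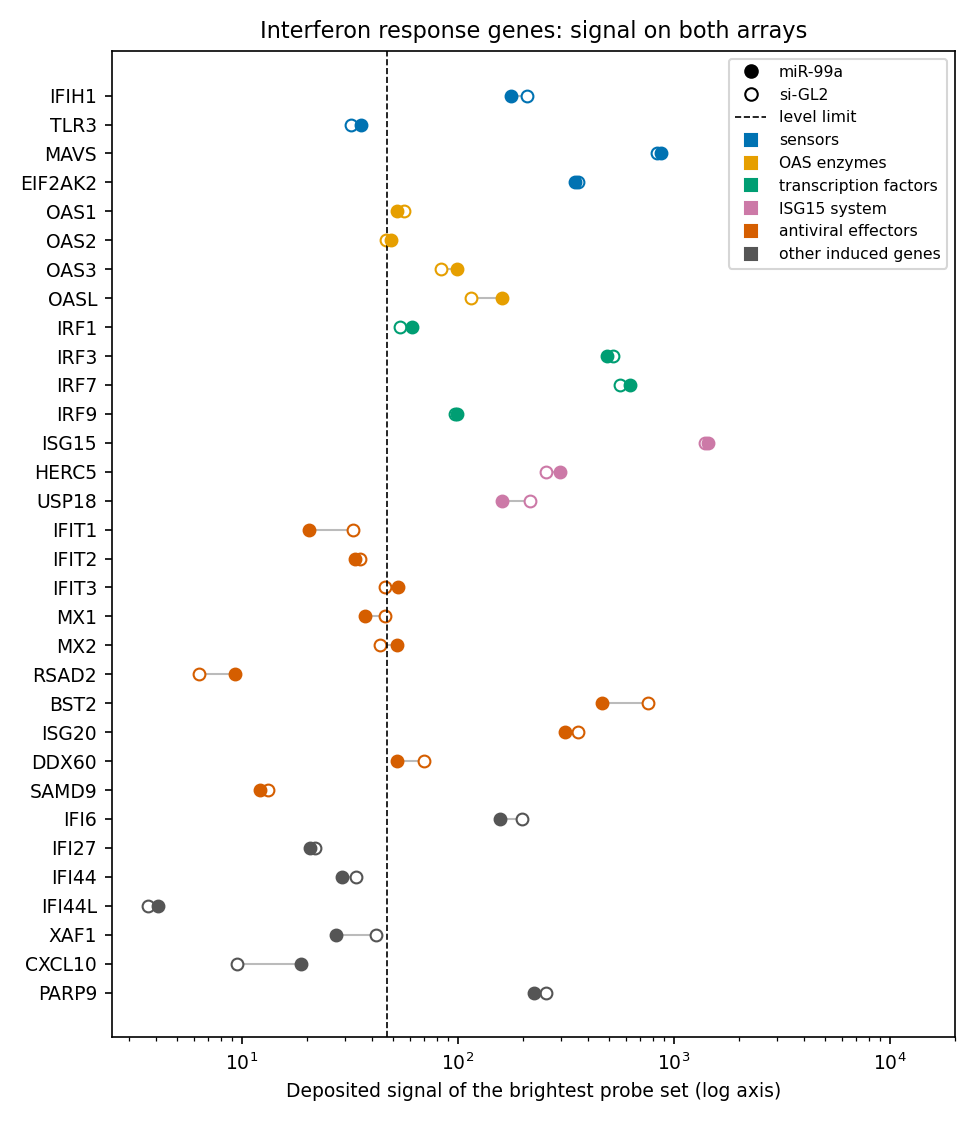
Deposited signal of the brightest probe set of each of the 32 genes (horizontal log axis), filled points for the miR-99a array and open points for the si-GL2 array, coloured by role, with the level limit of 47.2 dashed. The paired points lie close together in most rows. The pair of BST2 (468 with miR-99a, 764 with si-GL2) is the one above the limit that is past 1.5-fold. As plain ratios of signals, the dim pairs of IFIT1, XAF1 and CXCL10 are also past it. Signals of different genes are not comparable, since each probe set has its own response.

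The brightest probe sets of the 4 sensor and adaptor genes differed by between -0.22 and 0.10. IFIH1 encodes MDA5, the cytosolic sensor of long double-stranded RNA, and read 177 with miR-99a and 208 with si-GL2, a difference of -0.22. Its other probe sets, below the limit, differed by -0.05 and -0.07. MAVS, the mitochondrial adaptor on which MDA5 and RIG-I signals converge, had 4 probe sets above the limit. They read 872, 294, 161 and 92.9 with miR-99a, against 836, 273, 126 and 82.3 with si-GL2, and all were slightly higher with miR-99a, by 0.06 to 0.32. EIF2AK2 encodes PKR, which blocks translation when double-stranded RNA binds it. Its pair of probe sets above the limit pointed opposite ways, with 347 with miR-99a against 361 with si-GL2 (-0.05) and 297 with miR-99a against 283 with si-GL2 (0.07). The dimmest, below the limit, read 23.1 with miR-99a and 32.5 with si-GL2 (-0.31). The endosomal receptor TLR3 stayed below the limit on both arrays with all 3 of its probe sets, the highest signal being 35.8.

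The OAS enzymes make oligoadenylates that activate the ribonuclease RNase L. OAS1 read 52.2 with miR-99a and 56.4 with si-GL2 (-0.09), and OAS2 read 49.1 with miR-99a and 46.6 with si-GL2 (0.06), both close to the limit. OAS3, which responds to long double-stranded RNA, read 99.1 with miR-99a and 84.0 with si-GL2 (0.20). The other probe set of OAS1, below the limit, read 36.3 with miR-99a and 29.4 with si-GL2 (0.20), opposite in sign to the first. These 3 genes lie side by side on chromosome 12, and as means over their probe sets OAS1 was at 0.06, OAS2 at 0.07 and OAS3 at 0.03. OASL, a family member without synthetase activity that enhances RIG-I signalling, had the highest difference of the 21 genes, 160 with miR-99a against 115 with si-GL2 (0.43). Its other probe set, below the limit, was on the other side of 0, with 38.7 with miR-99a and 45.2 with si-GL2 (-0.16). The brighter of these is marked _s_ by the manufacturer, a kind that can detect several transcripts.

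The interferon regulatory factors carry the signal to the genome. IRF3, the latent factor activated downstream of MAVS, read 493 with miR-99a and 524 with si-GL2 (-0.09). IRF7, itself induced by interferon and needed for the later wave of interferon alpha, read 628 with miR-99a and 561 with si-GL2 (0.16). IRF9, the DNA-binding subunit of the complex that occupies the response element, read 99.7 with miR-99a and 97.6 with si-GL2 (0.03). IRF1, a target of interferon gamma signalling, read 61.7 with miR-99a and 53.9 with si-GL2 (0.15), and its dim probe set was also higher, at 41.4 with miR-99a against 26.9 with si-GL2 (0.42). All 4 factors lay within 0.25 of 0 by their brightest probe sets.

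The 3 genes of the ISG15 system did not move together. ISG15 is a ubiquitin-like protein that is attached to other proteins during the interferon response, and it is among the genes most strongly induced by interferon in many cell types. Its signal was 1438 with miR-99a and 1400 with si-GL2, a difference of 0.04. HERC5, the main ligase that attaches it, read 298 with miR-99a and 256 with si-GL2 (0.21). USP18, the protease that removes ISG15 and that also damps the interferon receptor, read 160 with miR-99a and 217 with si-GL2 (-0.41). USP18 was thus the second lowest of the 21 genes and short of 1.5-fold, with 1 probe set and no second measurement.

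**Figure D2:**
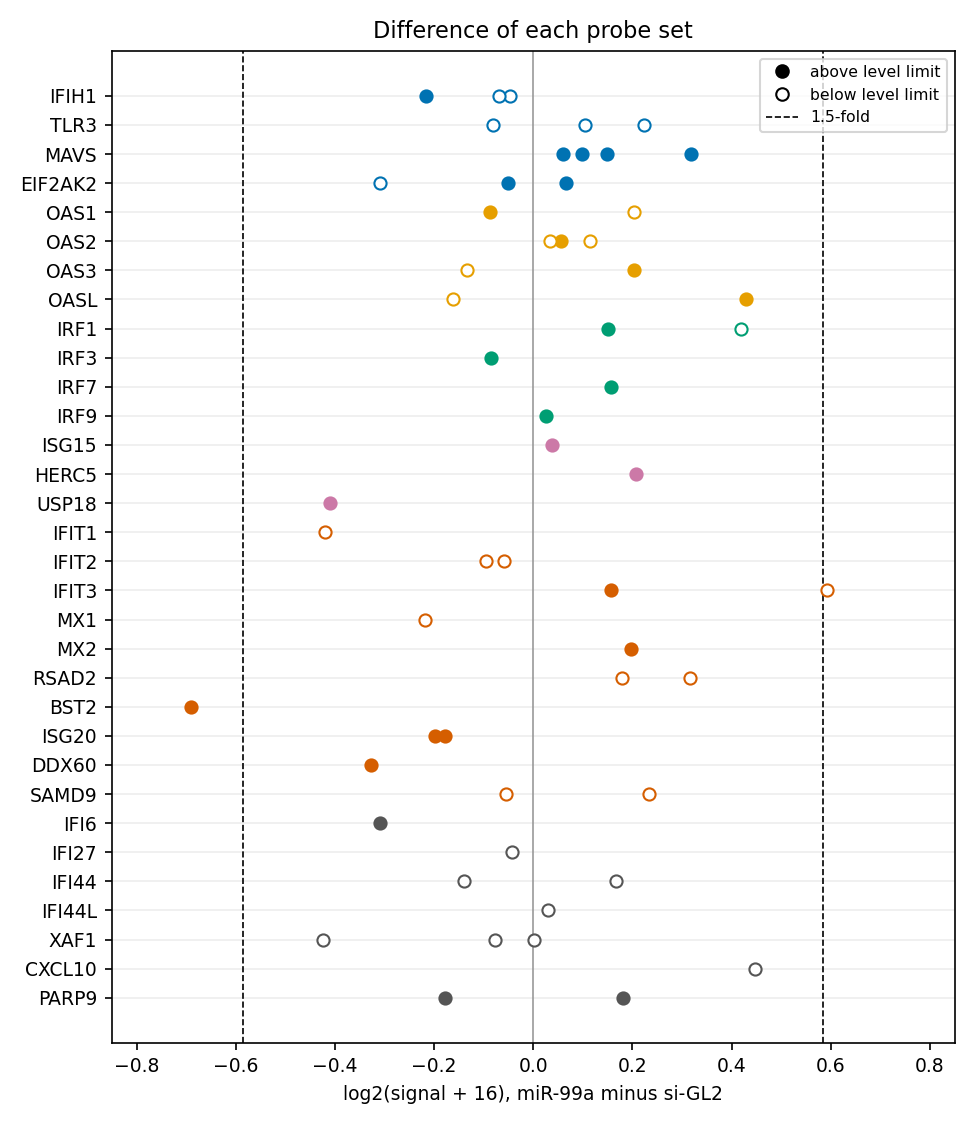
Difference of log2(signal + 16), miR-99a minus si-GL2, for each of the 56 probe sets (horizontal axis), one row per gene coloured by role as in the plot of signals, filled where the probe set lay above the level limit and open where it lay below, with 1.5-fold dashed. BST2 at -0.69 is the one filled point past 1.5-fold, and a dim probe set of IFIT3 at 0.59 is the one open point past it.

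Among the antiviral effectors, BST2 stood lowest. It encodes tetherin, a membrane protein that holds budding virus particles at the cell surface, and its 1 probe set read 468 with miR-99a against 764 with si-GL2, a difference of -0.69, or 1.63-fold lower as a plain ratio of signals. Of all 12218 genes above the limit, 191 lay at or below this difference, BST2 included. With 1 probe set there is no check of this value within the arrays. ISG20, an exonuclease that degrades RNA, read 313 with miR-99a and 361 with si-GL2 by its brighter probe set (-0.20) and 234 with miR-99a and 266 with si-GL2 by the other (-0.18). The helicase gene DDX60 read 52.4 with miR-99a and 69.9 with si-GL2 (-0.33). MX2, a GTPase that restricts viruses at the nuclear pore, read 52.6 with miR-99a and 43.8 with si-GL2 (0.20), so it lay on either side of the limit, as OAS2 and IFIT3 did.

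Some products of the IFIT genes bind foreign RNA. IFIT3 lay just above the limit, while IFIT1, IFIT2, MX1, RSAD2 and SAMD9 lay below it. IFIT1 read 20.4 with miR-99a and 32.7 with si-GL2 (-0.42). IFIT2 read 33.3 with miR-99a and 35.3 with si-GL2 (-0.06). IFIT3 read 53.2 with miR-99a and 46.0 with si-GL2 (0.16), and its dimmer probe set read 24.3 with miR-99a and 10.7 with si-GL2 (0.59), past 1.5-fold but below the limit. IFIT2 and IFIT3 are neighbours on chromosome 10, and differed in sign. The GTPase gene MX1 read 37.3 with miR-99a and 46.0 with si-GL2 (-0.22), opposite in sign to its neighbour MX2. RSAD2, which encodes viperin, gave no signal over 10.1 with its probe sets, and SAMD9 none over 13.2.

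Of the 7 other induced genes, IFI6 and PARP9 lay above the level limit. IFI6, a protein that limits cell death and viral replication, read 157 with miR-99a and 198 with si-GL2 (-0.31). PARP9 encodes a partner of the ubiquitin ligase DTX3L. It read 226 with miR-99a and 258 with si-GL2 by its brighter probe set (-0.18) and 119 with miR-99a and 103 with si-GL2 by the other (0.18), a mean of 0.00. DTX3L, its neighbour on chromosome 3, read 1002 with miR-99a and 747 with si-GL2 (0.42). Of the dim genes, CXCL10, a chemokine that attracts T cells, read 18.8 with miR-99a and 9.52 with si-GL2 (0.45), and XAF1, a promoter of cell death, read 27.2 with miR-99a and 42.0 with si-GL2 (-0.42). IFI27 read 20.8 with miR-99a and 21.9 with si-GL2, IFI44 read 29.1 with miR-99a and 33.7 with si-GL2. IFI44L, its neighbour on chromosome 1, read 4.09 with miR-99a and 3.67 with si-GL2.

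Probe sets of one gene gave a yardstick for these differences in the absence of replicates. Over the 5842 genes with 2 or more probe sets above the limit, differences of the same gene had a pooled SD of 0.20. It measures how far probe sets of 1 gene disagree within the same 2 arrays. It covers neither an error that shifts all probe sets of a gene alike nor the variation between cultures. Of the 17 pathway genes with 2 or more probe sets at any level, 9 had probe sets on both sides of 0. Above the limit there were 4 such genes, of which MAVS and ISG20 had all probe sets on 1 side, while EIF2AK2 and PARP9 did not. The same counts were not made over all genes, so they do not set the pathway genes apart. Of the 21 pathway genes above the limit, 10 differed by more than this SD, 4 higher and 6 lower (38.2% of all genes above the limit did). OASL, the highest of them, had its dimmer probe set on the other side of 0.

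**Figure D3:**
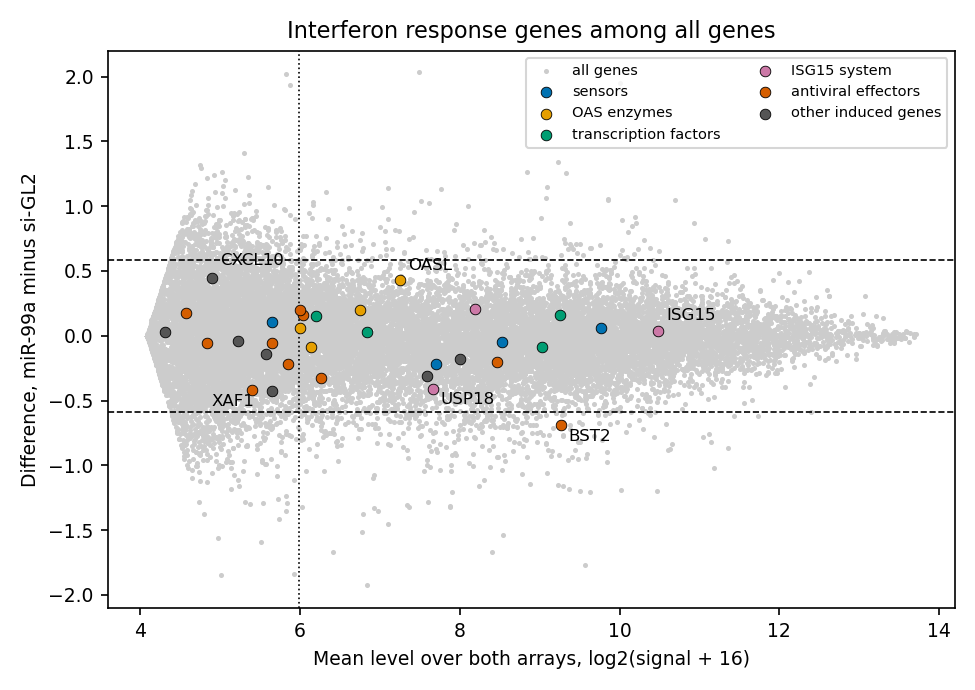
Difference of log2(signal + 16), miR-99a minus si-GL2 (vertical axis), against the mean level over both arrays (horizontal axis) for the brightest probe set of every gene in grey and of the 32 pathway genes in colour by role, with 1.5-fold dashed and the level limit dotted. The pathway genes lie inside the grey cloud at every level, and BST2 alone passes 1.5-fold.

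Pathway genes with and without a match to the letters of the response element in their promoter window are given side by side as a description. The search took those letters only, so a window without a match may still hold a variant of the element. Above the limit, OAS2, OASL, IRF3, IRF7, USP18 and MX2 had no promoter window and are in neither group. The 11 genes with a match, among them BST2, ISG15 and HERC5, had a median difference of -0.18 with 4 above 0 and 7 below. Of all genes above the limit, 43.7% lay above 0. The 4 pathway genes without a match, MAVS, IRF1, IRF9 and OAS1, had a median of 0.04 with 3 above 0. The second element of the pathway, the interferon gamma-activated site, was searched as TTCNNNGAA, which reads the same on both strands and can overlap the first, as it does in BST2. It was found in the windows of 8 of 26 pathway genes (30.8%), IRF1 and IRF9 among them, against 9.38% of all genes.

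Other genes of the pathway were read in 5 further lists. In these, 63 of the 111 genes with a probe set lay above the limit. By their brightest probe sets, 0 were 1.5-fold higher (1.21% of all genes above the limit were) and 0 lower (2.90%). They had 42 above 0, 21 below and a median of 0.13 (43.7% of all genes above the limit lay above 0). IFNB1, the interferon that sensors induce first, read 7.35 with miR-99a and 6.01 with si-GL2, and no interferon gene reached more than 52.5 on either array. The 2 that lay above the limit were IFNG (52.5 with miR-99a and 52.1 with si-GL2) and IFNL1 (47.7 with miR-99a and 46.9 with si-GL2). The 13 receptor and signalling genes had a median of 0.19, with 10 above 0. IFNAR1, a chain of the type I interferon receptor, read 262 with miR-99a and 189 with si-GL2 by its brightest probe set (0.44), while its 4 probe sets ranged from -0.35 to 0.44. IFNAR2, the other chain, read 1171 with miR-99a and 1106 with si-GL2 (0.08). JAK1 read 77.9 with miR-99a and 69.8 with si-GL2 by the one of its 5 probe sets above the limit (0.13), and its other probe sets stayed at or below 45.6.

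Of 13 further sensors and adaptors, 8 lay above 0 (43.7% of all genes above the limit did) and the median was 0.05. RIGI, the cytosolic sensor of short double-stranded RNA with a free end, read 114 with miR-99a and 95.2 with si-GL2 (0.23) by its brightest probe set, with its 3 probe sets between -0.16 and 0.23. TBK1, the kinase that phosphorylates IRF3, read 822 with miR-99a and 884 with si-GL2 (-0.10). The list's extremes, named after their values were seen, were a pair of ligases that act on RIG-I: TRIM25 at 0.43 (702 with miR-99a, 517 with si-GL2) and RNF135 at -0.42 (613 with miR-99a, 826 with si-GL2). Their dimmer probe sets, also above the limit, were at 0.37 for TRIM25 and at -0.73, past 1.5-fold, for RNF135.

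Of the 29 other interferon-stimulated genes, 17 lay above 0 and 12 below (43.7% of all genes above the limit lay above 0), and their median was 0.13. Named after their values were seen, LAMP3 was highest at 0.56 (70.8 with miR-99a, 43.1 with si-GL2). The nuclear body gene SP100 was lowest by its brightest probe set, at -0.40 (231 with miR-99a, 309 with si-GL2). The 6 probe sets of SP100 ranged from -0.40 to 0.25, with a mean of -0.03. The 3 IFITM genes, whose products block viral entry at membranes, were all above 0, with IFITM1 at 0.45, IFITM2 at 0.31 and IFITM3 at 0.27. They are close relatives, and cross-hybridisation between their probe sets was not tested. IFITM3 read 3075 with miR-99a and 2547 with si-GL2. Listed neighbours of the pathway genes on the chromosome went both ways. Above the limit, HERC6, next to HERC5, was at -0.36, CMPK2, next to RSAD2, at -0.34, IFIT5 at -0.05 and DTX3L at 0.42. The other probe set of HERC6, below the limit, was at 0.04. The neighbours CXCL11, DDX60L and SAMD9L, all below the limit, were at 0.14, 0.39 and 0.08. The 6 genes of the NF-kappa-B response, the inflammatory branch of the same sensors, had a median of 0.17, and the inhibitor gene NFKBIA was highest at 0.52 (1499 with miR-99a, 1039 with si-GL2).

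**Figure D4:**
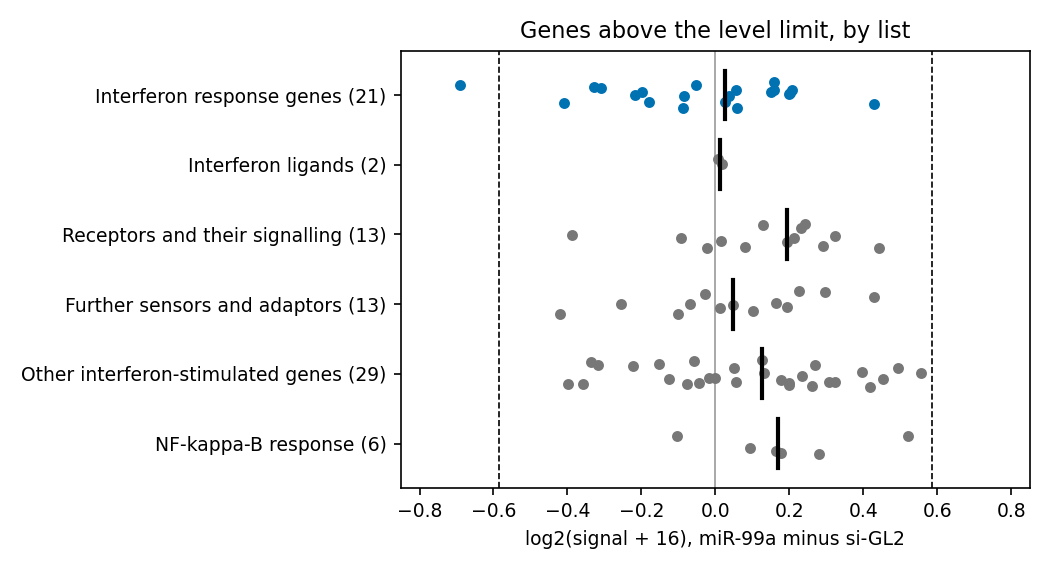
Difference of log2(signal + 16), miR-99a minus si-GL2 (horizontal axis), for the genes above the level limit in each list, with the number of genes in parentheses, 1 point per gene by its brightest probe set, the median as a vertical bar and 1.5-fold dashed. BST2, at -0.69, is the one gene past 1.5-fold, and the list medians lie between 0.01 and 0.19.

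The median signals of the arrays were 47.8 with miR-99a and 47.4 with si-GL2. All 7 luminal prostate markers measured, among them KLK3, TMPRSS2 and HOXB13, lay above the limit. By their brightest probe sets they differed by between -0.20 (KLK2) and 0.31 (KRT8). The 4 probe sets of KLK2, 3 of them above the limit, disagreed and ranged from -0.78 to 1.11. The summed signal of the 7 markers was 28266 with miR-99a and 28250 with si-GL2, with members on both sides of 0. Of 5 leukocyte markers, CD3E and CSF1R lay above the limit, with no signal over 74.3 and a summed signal of 191 with miR-99a and 162 with si-GL2. The pan-leukocyte gene PTPRC read 39.5 with miR-99a and 22.5 with si-GL2, and all 3 markers of plasmacytoid dendritic cells lay below the limit. A share of other cells in these cultures was not tested.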

How the data were processed

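Total RNA of C4-2 cells was extracted with Trizol, biotin-labelled and hybridised as Affymetrix prescribes, per the labels' protocols. The authors deposited 1 linear signal intensity per probe set and array, from 0.70 to 13495 (miR-99a) and 0.73 to 13399 (si-GL2); no source used here gives the summary algorithm or scaling. The number of arrays, 1 per group, limits the precision, and no test was possible.

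Values were used as log2(signal + 16). Gene names came from the platform annotation, in which 41091 probe sets carry 1 gene, giving 19775 genes, each read by its brightest probe set. Genes above the limit are those whose mean level reached the median of all probe sets. The size rule was tested on simulated data. Members and lists were chosen with earlier results of these data known. All members, 6 further pathway genes and any other listed gene past 1.5-fold were to be named; others were named after their values were seen. Alternatives were a 2-fold rule, centring, quantile normalization, pseudocounts of 1 and 64, no limit, a limit at the 75th percentile, leaving out _x_ and _s_ probe sets, and the mean over probe sets. Motifs were searched in RefSeq promoter windows. Python 3.11.15, numpy 2.4.6 and pandas 2.3.3 were used.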

Additional observations from a re-analysis of the deposited data

How the results depend on the processing

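The count of pathway genes at least 1.5-fold lower was 1, BST2, under every alternative except the 2-fold rule, where it was 0 for genes and 0 for probe sets. BST2 itself lay between -0.71 and -0.64. The count of higher genes stayed at 0 under all alternatives, and 1 probe set, the dim one of IFIT3, was added when the level limit was dropped. The median of the pathway genes ranged from -0.05 to 0.06 over the alternatives, so its sign depends on the setting: it was negative with no limit and with the 75th percentile as the limit. In the further lists, dropping the limit gave 6 higher and 2 lower genes of 111, all dim. Over all 19775 genes without the limit, 573 were higher and 729 lower by the same rule. LAMP3 was the 1 listed gene higher with a pseudocount of 1, and RNF135 the 1 listed gene lower without _x_ and _s_ probe sets (-0.73). Without _x_ and _s_ probe sets, OASL was at -0.16, PARP9 at 0.18 and EIF2AK2 at 0.07, all turned in sign. That setting left 17 pathway genes above the limit and no probe set for IRF7, ISG15 and DDX60. As means over their probe sets, OASL was at 0.13 and IFIT3 at 0.38, while OAS1 at 0.06 and PARP9 at 0.00 turned in sign. No paired analysis was possible because each group holds 1 array. Dim probe sets limit what can be seen: 11 of the 32 pathway genes lay below the limit. The share at or above it was 65.6% for the pathway genes and 61.8% for all genes. The SD of the difference was 0.31 over all 19775 genes and 0.26 over those above the limit.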
